A study of Homo sapiens with 18 samples.

Results

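The proteasome subunit genes, taken here as those whose symbol is PSMA, PSMB, PSMC or PSMD followed by a number, were followed over 18 expression arrays of K562, a cell line of human chronic myeloid leukemia, after retroviral transduction. The probe table of the array gave 34 such genes that a probe set names alone, out of 19775. They comprised 7 alpha and 7 beta subunits of the core particle, 3 immune forms of the beta subunits (PSMB8, PSMB9 and PSMB10), 5 ATPase subunits and 12 non-ATPase subunits. The probe set that was brightest on average stands for each gene. Of the 39 symbols these number series run through, PSMA6 was named only on probe sets that also name other genes, and PSMB11, PSMC5, PSMD7 and PSMD13 were not analysed here.

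The cells carried the retroviral vector LCALRwtIDN (CALRwt), LCALRdel52IDN (CALRdel52) or LCALRins5IDN (CALRins5) and were purified by NGFR, the surface marker of the vector. CALR encodes calreticulin, a chaperone of the endoplasmic reticulum. Each vector was represented by 3 arrays of untreated cells and 3 arrays of cells exposed to Melittin (MEL), the main toxin of bee venom, which was used at 5 μg/mL for 24 h to induce oxidative stress. All groups overexpressed a CALR vector on top of the CALR of the line, no group with an empty vector was among the samples, and each group was a bulk selected population. The labels describe culture with or without MEL in one field and RNA taken right after sorting for cells without MEL in another, so the time in culture of untreated cells is uncertain and cannot be told apart from MEL. Of the markers of this line, GATA1 averaged 8.98 on the log2 scale over the 18 arrays, TAL1 10.35, HBE1 11.38 and HBZ 11.99. CD14 and CD3E, markers of monocytes and T cells, averaged 3.50 and 4.99, whereas COL1A1, a stromal marker, averaged 7.42. EPCAM, an epithelial marker, averaged 11.15.

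The proteasome is the main protease of the cytosol and nucleus and degrades proteins tagged with ubiquitin. Alpha and beta rings form a barrel whose inner face holds the catalytic beta subunits, and a regulatory particle caps it with a ring of ATPases that unfolds substrates and a lid that removes their ubiquitin. In cells exposed to interferon or in immune tissue the catalytic subunits are replaced by immune forms, which favour peptides for antigen presentation, and under proteasome stress the transcription factor NFE2L1 is known to raise subunit genes together through antioxidant response elements.

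Values are the deposited RMA expression values on the log2 scale and span 1.56 to 14.49, while the median of an array lay between 4.56 and 4.66. GAPDH read 0.31 to 0.41 higher on its 3' than on its 5' probe set in the 9 untreated arrays and 0.42 to 1.33 higher in the 9 MEL arrays, a gap that widens as RNA is degraded. The highest value was that of CALRins5 MEL replicate 1, and that array and CALRdel52 MEL replicate 3 had the lowest median correlations with the other arrays, at 0.990 and 0.989. The mean interquartile range of an array was 3.68 without and 3.54 with MEL. The labels give 3 independent experiments for the sorted cells without MEL. They do not say this of the MEL arrays or whether equal replicate numbers mark a shared experiment, so p-values measure the spread between these arrays, which for MEL arrays may be technical.

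Upon MEL exposure most proteasome subunit genes fell by a small amount. Over the 3 vectors 20 of the 34 genes fell and 2 rose (PSMB9 and PSMD14), by limma at a Benjamini-Hochberg adjusted p under 0.05 over all probe sets, while 18.1% of all genes were called lower and 18.6% higher. The median log2 fold change was -0.16 over the subunit genes and 0.04 over all genes. PSMB1, which fell by 9.77%, marked the smallest of these falls and PSMC6, which fell by 41.9%, the largest. A negative difference in each of the 3 vectors was found for 25 subunit genes, where 25.2% of all genes had one, and a positive difference in each for 2, where 35.9% of all genes had one. The background depended on the level: of the 3061 genes with a mean above 9, 37.2% were called lower and 17.3% higher, with a median of -0.07, whereas of the 29 subunit genes above that level 18 were called lower and 1 higher, with a median of -0.16. RMA sets the arrays to a common distribution, so each value is relative to the other genes of the array, and less RNA per cell and fewer cells with it cannot be told apart. Of the 4 measured markers of the line HBZ fell by 0.48 with MEL, GATA1 fell by 0.20 and HBE1 rose by 0.22, and of the 4 measured markers of other cells EPCAM fell by 0.26 and CD3E, CD14 and COL1A1 were not called, and their part in the subunit changes was not tested.

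All 9 MEL arrays lay below all 9 untreated arrays for 8 subunit genes (PSMA1, PSMA2, PSMA4, PSMC1, PSMC4, PSMC6, PSMD4 and PSMD12), and 6.23% of all genes did so. All 9 MEL arrays lay above all 9 untreated arrays for PSMD14, as for 2.65% of all genes. Neither share was taken among genes of like level. By structural class, 4 of 7 alpha subunits fell with a class median of -0.24, 4 of 7 beta subunits with a median of -0.15, 4 of 5 ATPase subunits with a median of -0.36, and 7 of 12 non-ATPase subunits with a median of -0.16. Among the non-ATPase subunits, 5 of the 6 lid subunits measured fell and 1 rose, and 1 of the 3 base subunits and 1 of the 3 assembly chaperones with a PSMD name fell. The 3 immune forms split, with 1 higher, 1 lower and 1 not called. Beside these class counts, 18.1% of all genes were called lower and 18.6% higher, with a median of 0.04. Among genes with a mean above 9 the shares were 37.2% and 17.3%, with a median of -0.07. The base subunits and the PSMD chaperones, each at 33.3% called lower, were near the share of that level.

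**Figure D1:**
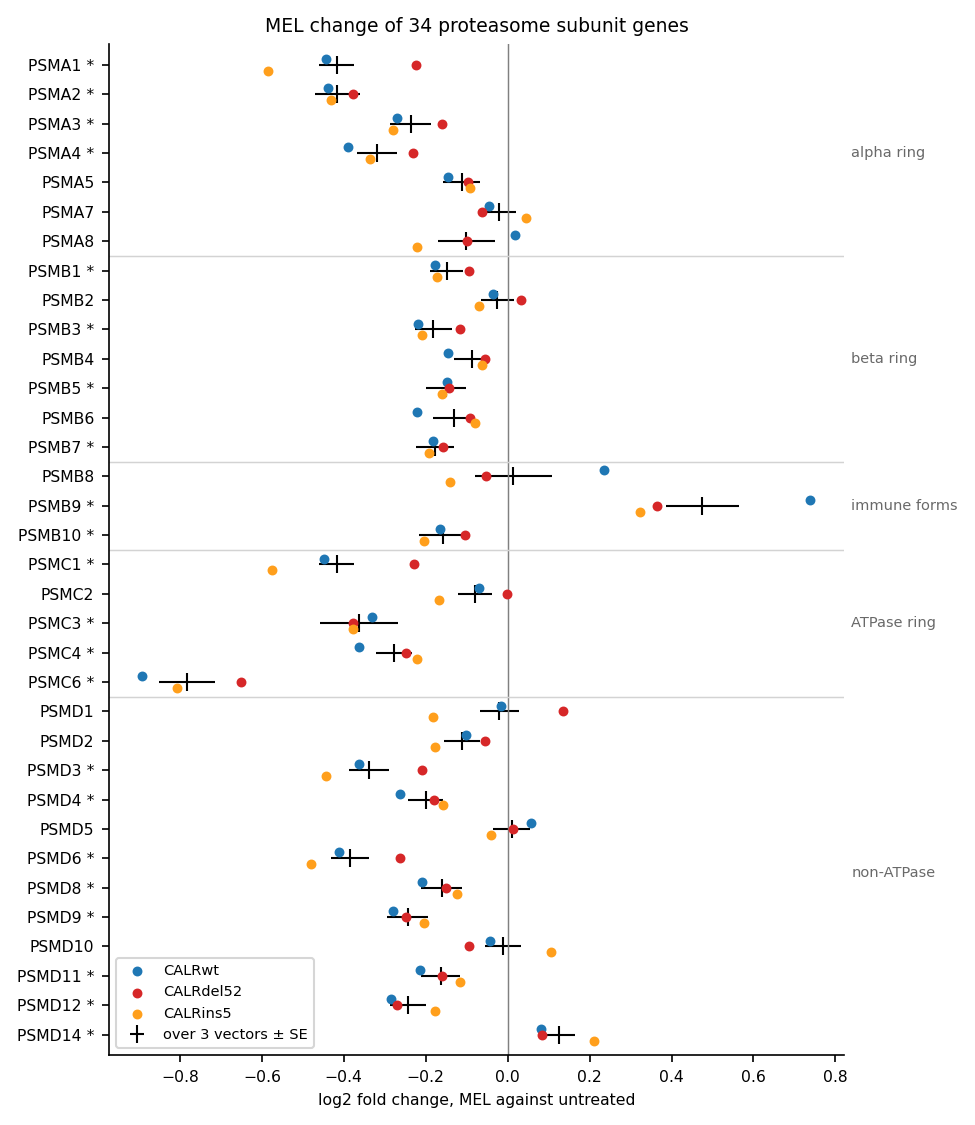
Log2 fold change of MEL against untreated cells for each of the 34 subunit genes, with a coloured point for each vector and a black bar with its SE over the 3 vectors, grouped by structural class. An asterisk marks a gene called over the 3 vectors. PSMC6 lies farthest to the left at -0.78 and PSMB9 farthest to the right at 0.48.

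The promoter windows of PSMC6, which had the largest fall, of PSMD14 and PSMB9, which rose, and of PSMD3 and PSMB10, which fell and hold motifs, are printed to show the DNA before each start, a choice made after values and motifs were seen. The windows of PSMA1 and PSMC1, which had the next largest falls, held none of the motifs below. They are RefSeq windows of 300 bases on GRCh38.p14, from 250 bases before the transcription start to 50 after it, 5′ to 3′ on the strand of the gene. Capitals mark matches on either strand to TGACNNNGC (the core of an antioxidant response element) or CCAAT (the box bound by NF-Y), and in the immune forms also to GAAA, any 2 bases and GAAA (part of the interferon-stimulated response element). PSMC6 (chr14:52706950-52707249, plus strand), the gene with the largest fall, held none of the 3. PSMD3 (chr17:39980557-39980856, plus strand), which fell, held TGACNNNGC at -37 and 34 from the start and the CCAAT box at -217. PSMD14 (chr2:161308175-161308474, plus strand), which rose, held 2 overlapping CCAAT boxes on opposite strands at -48 and -45. PSMB9 (chr6:32853942-32854241, plus strand), which rose, held TGACNNNGC at -148 and a CCAAT box at -243. PSMB10 (chr16:67936801-67937100, minus strand), which fell, held this interferon motif at -21. PSMB8, which was not called, held the interferon motif at -4 in a window not printed, and PSMB9 did not hold it. Outside the immune forms, PSMA4 held it at -240 and PSMB4 at -68.
PSMC6: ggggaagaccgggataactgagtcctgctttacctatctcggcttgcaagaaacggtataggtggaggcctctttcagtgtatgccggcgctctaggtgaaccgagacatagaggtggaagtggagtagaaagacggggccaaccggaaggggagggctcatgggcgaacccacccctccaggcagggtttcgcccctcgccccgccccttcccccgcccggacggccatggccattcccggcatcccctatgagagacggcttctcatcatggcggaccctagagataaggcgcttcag
PSMD3: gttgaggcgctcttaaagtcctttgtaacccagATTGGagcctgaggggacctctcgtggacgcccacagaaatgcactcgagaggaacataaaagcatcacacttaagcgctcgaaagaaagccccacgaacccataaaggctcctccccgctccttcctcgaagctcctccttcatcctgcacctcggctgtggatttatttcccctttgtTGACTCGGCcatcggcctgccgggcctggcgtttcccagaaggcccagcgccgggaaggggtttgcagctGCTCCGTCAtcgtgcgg
PSMD14: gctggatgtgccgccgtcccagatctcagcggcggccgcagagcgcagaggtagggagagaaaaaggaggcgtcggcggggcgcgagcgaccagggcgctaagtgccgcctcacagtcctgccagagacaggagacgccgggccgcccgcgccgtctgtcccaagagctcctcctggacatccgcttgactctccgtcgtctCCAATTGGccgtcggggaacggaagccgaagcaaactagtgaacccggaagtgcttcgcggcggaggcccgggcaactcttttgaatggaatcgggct
PSMB9: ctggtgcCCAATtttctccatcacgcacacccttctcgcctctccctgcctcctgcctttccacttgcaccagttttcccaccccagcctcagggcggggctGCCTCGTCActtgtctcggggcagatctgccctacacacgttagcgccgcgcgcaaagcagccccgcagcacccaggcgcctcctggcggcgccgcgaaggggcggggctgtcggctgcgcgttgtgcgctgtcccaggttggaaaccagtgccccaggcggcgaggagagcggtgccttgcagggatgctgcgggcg
PSMB10: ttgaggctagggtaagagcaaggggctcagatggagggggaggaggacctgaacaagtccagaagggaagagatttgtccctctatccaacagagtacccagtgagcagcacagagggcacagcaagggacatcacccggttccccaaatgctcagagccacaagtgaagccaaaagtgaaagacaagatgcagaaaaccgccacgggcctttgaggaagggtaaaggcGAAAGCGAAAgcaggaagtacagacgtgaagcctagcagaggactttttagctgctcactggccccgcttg

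Windows were at hand for 29 of the 34 genes, 34 windows in all since 4 genes had several, and none for PSMA7, PSMB1, PSMB6, PSMB7 and PSMD4. TGACNNNGC was found in 9 of these 34 windows, or 26.5%, and in 13.3% of the 35097 windows of all genes. CCAAT was found in 44.1% of the subunit windows and 34.6% of all windows, and the interferon motif in 11.8% and 3.58%. Of the windows of genes that fell with MEL, 6 of 20 held TGACNNNGC, as did 2 of 12 windows of genes not called. These are matches of letters only.

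Among the alpha subunits, which form the outer rings of the barrel and its gate, PSMA1, PSMA2, PSMA3 and PSMA4 fell. PSMA1 in untreated cells was 11.77, 11.73 and 11.75 with CALRwt, 11.49, 11.52 and 11.54 with CALRdel52, and 11.89, 11.81 and 11.93 with CALRins5 (log2 values of replicates 1 to 3). With MEL, PSMA1 was 11.38, 11.32 and 11.21 with CALRwt, 11.31, 11.33 and 11.23 with CALRdel52, and 11.25, 11.36 and 11.27 with CALRins5. Every MEL array lay below every untreated array, and the MEL arrays of the 3 vectors overlapped. PSMA1 fell by 0.42 over the 3 vectors (SE 0.04, adjusted p = 1.1e-06) and on the linear scale fell by 25.1%. PSMA2 in untreated cells was 11.52, 11.45 and 11.59 with CALRwt, 11.34, 11.38 and 11.39 with CALRdel52, and 11.53, 11.69 and 11.70 with CALRins5. With MEL, PSMA2 was 11.18, 11.06 and 10.99 with CALRwt, 11.08, 11.14 and 10.76 with CALRdel52, and 11.24, 11.17 and 11.22 with CALRins5. The conditions did not overlap here either, and CALRdel52 MEL replicate 3 was the lowest array. The fall of PSMA2 was called in each vector and was -0.42 over all (SE 0.06, adjusted p = 1.7e-05). PSMA4 in untreated cells was 11.34, 11.22 and 11.45 with CALRwt, 11.14, 11.18 and 11.25 with CALRdel52, and 11.32, 11.36 and 11.44 with CALRins5. With MEL, PSMA4 was 11.03, 10.93 and 10.89 with CALRwt, 10.99, 11.05 and 10.84 with CALRdel52, and 10.95, 11.09 and 11.07 with CALRins5. PSMA4 showed no overlap between conditions and changed by -0.32 (SE 0.05, adjusted p = 8.0e-05). PSMA3 changed by -0.24, with the highest MEL array at 10.98 above the lowest untreated array at 10.87. PSMA5 and PSMA7 were not called, at -0.11 and -0.02, and PSMA8, the alpha subunit of the testis, averaged 2.27, at the bottom of the range of the arrays, with a difference of -0.10.

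The beta subunits changed by less. PSMB1, PSMB3, PSMB5 and PSMB7 fell by 0.15 to 0.18, and PSMB2, PSMB4 and PSMB6 had differences of -0.03, -0.09 and -0.13 that did not pass. PSMB3 in untreated cells was 11.04, 11.05 and 10.99 with CALRwt, 10.69, 10.86 and 10.88 with CALRdel52, and 11.00, 11.01 and 11.14 with CALRins5. With MEL, PSMB3 was 10.78, 10.80 and 10.84 with CALRwt, 10.75, 10.69 and 10.64 with CALRdel52, and 10.79, 10.86 and 10.87 with CALRins5. The ranges of both conditions overlapped through CALRdel52 untreated replicates 1 and 2, the lowest untreated arrays. PSMB3, a structural subunit without catalytic activity, changed by -0.18 (SE 0.05, adjusted p = 0.0045).

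PSMB5, PSMB6 and PSMB7 carry the chymotrypsin-like, caspase-like and trypsin-like activities. PSMB5 in untreated cells was 10.49, 10.44 and 10.42 with CALRwt, 10.40, 10.54 and 10.47 with CALRdel52, and 10.50, 10.46 and 10.55 with CALRins5. With MEL, PSMB5 was 10.43, 10.33 and 10.15 with CALRwt, 10.36, 10.39 and 10.23 with CALRdel52, and 10.33, 10.31 and 10.38 with CALRins5. Of the 9 MEL arrays 8 lay below all untreated arrays. The PSMB5 change was -0.15 (SE 0.05, adjusted p = 0.023). PSMB6 in untreated cells was 10.29, 10.43 and 10.38 with CALRwt, 10.04, 10.27 and 10.28 with CALRdel52, and 10.24, 10.33 and 10.33 with CALRins5. With MEL, PSMB6 was 10.12, 10.21 and 10.12 with CALRwt, 10.18, 10.08 and 10.05 with CALRdel52, and 10.11, 10.21 and 10.34 with CALRins5. The conditions overlapped, with CALRdel52 untreated replicate 1 below all MEL arrays and CALRins5 MEL replicate 3 among the untreated ones. PSMB6 differed by -0.13 (SE 0.05) and just missed the threshold (adjusted p = 0.056). PSMB7 in untreated cells was 11.65, 11.66 and 11.69 with CALRwt, 11.53, 11.70 and 11.67 with CALRdel52, and 11.61, 11.69 and 11.73 with CALRins5. With MEL, PSMB7 was 11.54, 11.42 and 11.48 with CALRwt, 11.52, 11.50 and 11.40 with CALRdel52, and 11.37, 11.53 and 11.55 with CALRins5. Of the MEL arrays 7 lay below all untreated arrays. PSMB7 changed by -0.18 (SE 0.05, adjusted p = 0.0063).

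The immune forms PSMB8, PSMB9 and PSMB10 take the places of PSMB5, PSMB6 and PSMB7. PSMB8 in untreated cells was 3.65, 3.29 and 3.23 with CALRwt, 3.73, 3.63 and 3.51 with CALRdel52, and 3.47, 3.68 and 3.75 with CALRins5. With MEL, PSMB8 was 3.18, 3.75 and 3.95 with CALRwt, 3.63, 3.35 and 3.74 with CALRdel52, and 3.52, 3.34 and 3.62 with CALRins5. All of these values lay below the medians of the arrays, and the conditions overlapped. The PSMB8 difference was 0.01 (SE 0.09, adjusted p = 0.93). PSMB9 in untreated cells was 3.88, 3.91 and 4.14 with CALRwt, 4.51, 4.11 and 3.94 with CALRdel52, and 4.23, 4.51 and 4.33 with CALRins5. With MEL, PSMB9 was 4.80, 4.72 and 4.62 with CALRwt, 4.26, 4.94 and 4.45 with CALRdel52, and 4.77, 4.63 and 4.63 with CALRins5. Of the MEL arrays 7 lay above all untreated arrays, the exceptions being CALRdel52 replicates 1 and 3. PSMB9 rose by 0.48 over the 3 vectors (SE 0.09, adjusted p = 4.8e-04), or 39.0%, at values close to the array medians. Within vectors its difference was called with CALRwt at 0.74 (adjusted p = 0.0034), while the values of 0.37 with CALRdel52 and 0.32 with CALRins5 did not pass. The response of PSMB9 in mutated cells differed from that in CALRwt cells by -0.40, which did not pass (SE 0.19, adjusted p = 0.995). PSMB10 in untreated cells was 8.20, 8.15 and 8.07 with CALRwt, 7.82, 8.14 and 8.27 with CALRdel52, and 8.17, 8.07 and 8.21 with CALRins5. With MEL, PSMB10 was 8.07, 8.00 and 7.85 with CALRwt, 7.94, 8.01 and 7.96 with CALRdel52, and 7.96, 7.87 and 8.01 with CALRins5. The conditions overlapped, since CALRdel52 untreated replicate 1 was the lowest array of all. PSMB10 changed by -0.16 (SE 0.06, adjusted p = 0.047), and this call was lost when any of 14 single arrays was left out.

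**Figure D2:**
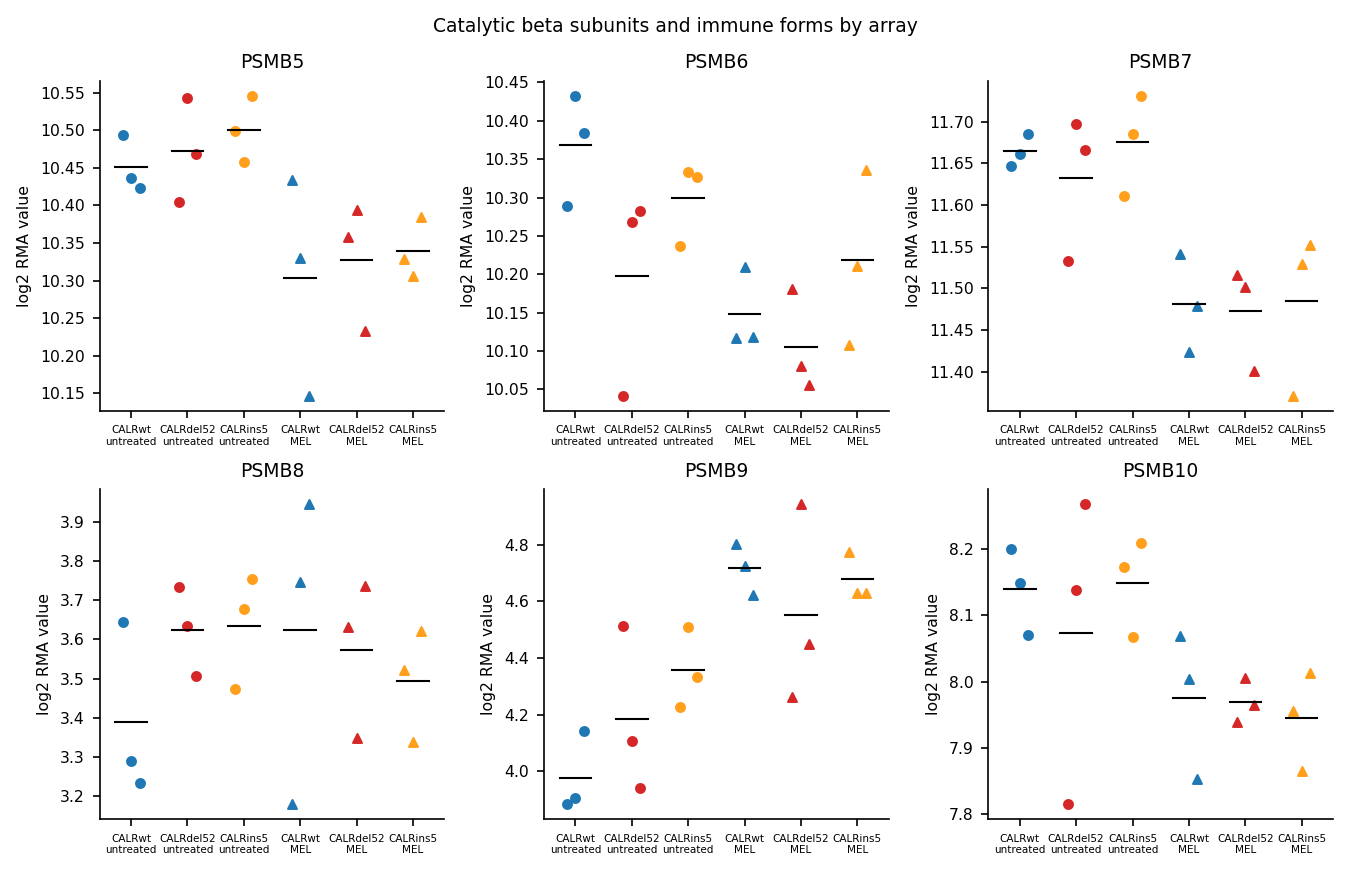
Log2 RMA values of the catalytic subunits PSMB5, PSMB6 and PSMB7 and of their immune forms PSMB8, PSMB9 and PSMB10 in the 18 arrays, with a circle for an untreated array, a triangle for a MEL array and a line at the mean of the 3 arrays of a group. Each panel has its own axis, which does not start at 0. PSMB9 rises with MEL, from 3.88 to 4.51 without it to 4.26 to 4.94 with it, while PSMB8 overlaps between conditions.

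The ATPase ring held the largest fall. PSMC6 had the largest fall of the 34 genes in each vector and over all. PSMC6 in untreated cells was 10.42, 10.42 and 10.56 with CALRwt, 10.12, 10.07 and 10.31 with CALRdel52, and 10.51, 10.62 and 10.61 with CALRins5. With MEL, PSMC6 was 9.69, 9.61 and 9.43 with CALRwt, 9.72, 9.63 and 9.19 with CALRdel52, and 9.70, 9.83 and 9.78 with CALRins5. Every MEL array lay below every untreated array, and CALRdel52 MEL replicate 3 was the lowest. PSMC6 fell by 0.78 over the 3 vectors (SE 0.07, adjusted p = 1.8e-07). The changes were -0.89 with CALRwt, -0.65 with CALRdel52 and -0.81 with CALRins5, each with an SE of 0.12 and each called. PSMC1 in untreated cells was 10.19, 10.14 and 10.19 with CALRwt, 9.92, 10.03 and 9.95 with CALRdel52, and 10.30, 10.36 and 10.45 with CALRins5. With MEL, PSMC1 was 9.79, 9.75 and 9.63 with CALRwt, 9.72, 9.75 and 9.74 with CALRdel52, and 9.82, 9.79 and 9.77 with CALRins5. The conditions did not overlap, and the spread of the untreated vectors, from 9.92 to 10.45, narrowed to 9.63 to 9.82 with MEL. PSMC1 fell by 0.42 over the 3 vectors (SE 0.04, adjusted p = 1.0e-06).

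PSMC3 in untreated cells was 10.30, 10.18 and 10.22 with CALRwt, 10.05, 10.36 and 10.26 with CALRdel52, and 10.19, 10.18 and 10.19 with CALRins5. With MEL, PSMC3 was 9.86, 10.07 and 9.77 with CALRwt, 9.80, 10.07 and 9.68 with CALRdel52, and 9.27, 10.10 and 10.05 with CALRins5. CALRins5 MEL replicate 1, the array with the highest GAPDH difference, lay far below all others. PSMC3 changed by -0.36 (SE 0.10, adjusted p = 0.0065) with all arrays and by -0.27 without that array, and with the GAPDH difference as a covariate the value was -0.05 (adjusted p = 0.67). PSMC4 changed by -0.28, with its MEL arrays at 9.89 to 10.18 and its untreated arrays at 10.28 to 10.45. PSMC2 was the ATPase subunit that was not called, at -0.08 (adjusted p = 0.16).

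**Figure D3:**
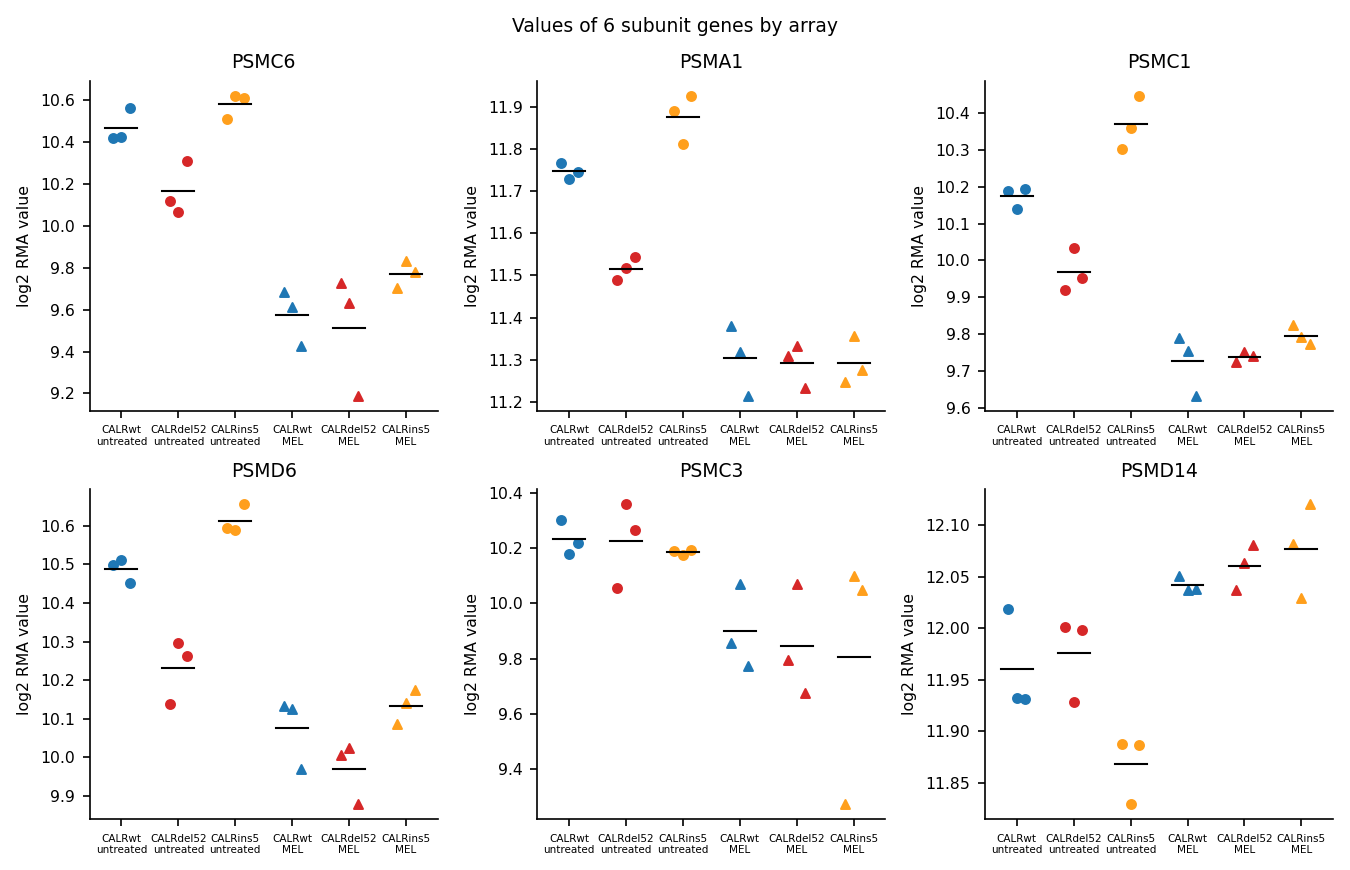
Log2 RMA values of PSMC6, PSMA1, PSMC1, PSMD6, PSMC3 and PSMD14 in the 18 arrays, drawn with a circle for an untreated array, a triangle for a MEL array and a line at the mean of 3 arrays. Each panel has its own axis, which does not start at 0. In the panels of PSMC6, PSMA1 and PSMC1 all MEL arrays lie below all untreated arrays, and in that of PSMD6 7 of the 9 do. PSMC3 shows 1 array at 9.27, and PSMD14 shows all MEL arrays at 12.03 or above.

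Among the non-ATPase subunits most lid genes fell. PSMD3 and PSMD6, scaffold subunits of the lid, fell. PSMD6 in untreated cells was 10.50, 10.51 and 10.45 with CALRwt, 10.14, 10.30 and 10.26 with CALRdel52, and 10.60, 10.59 and 10.66 with CALRins5. With MEL, PSMD6 was 10.13, 10.13 and 9.97 with CALRwt, 10.00, 10.02 and 9.88 with CALRdel52, and 10.09, 10.14 and 10.17 with CALRins5. Of the MEL arrays 7 lay below all untreated arrays, and both of the others lay below all untreated CALRwt and CALRins5 arrays. PSMD6 fell by 0.39 over the 3 vectors (SE 0.05, adjusted p = 4.6e-06) and was called in each vector. PSMD3 in untreated cells was 8.40, 8.32 and 8.32 with CALRwt, 8.05, 8.22 and 8.01 with CALRdel52, and 8.59, 8.44 and 8.40 with CALRins5. With MEL, PSMD3 was 7.98, 8.09 and 7.89 with CALRwt, 7.96, 7.89 and 7.80 with CALRdel52, and 8.01, 8.08 and 8.01 with CALRins5. The overlap came from the untreated CALRdel52 arrays. PSMD3 changed by -0.34 (SE 0.05, adjusted p = 4.1e-05). The lid subunits PSMD12, PSMD11 and PSMD8 changed by -0.24, -0.16 and -0.16.

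PSMD14, the lid subunit that cuts ubiquitin from substrates, went the other way. PSMD14 in untreated cells was 12.02, 11.93 and 11.93 with CALRwt, 12.00, 11.93 and 12.00 with CALRdel52, and 11.89, 11.83 and 11.89 with CALRins5. With MEL, PSMD14 was 12.05, 12.04 and 12.04 with CALRwt, 12.04, 12.06 and 12.08 with CALRdel52, and 12.08, 12.03 and 12.12 with CALRins5. Every MEL array lay above every untreated array, the closest being 12.03 and 12.02. PSMD14 rose by 0.12 (SE 0.04, adjusted p = 0.023), or 9.04%. The difference was 0.08 with CALRwt, 0.08 with CALRdel52 and 0.21 with CALRins5, none of them called alone. When each array was centred on its median the value was 0.08 and was no longer called (adjusted p = 0.20).

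Of the base subunits, PSMD4, which binds ubiquitin chains, fell by 0.20, with MEL arrays at 10.79 to 10.94 and untreated arrays at 10.96 to 11.13. PSMD1 and PSMD2, large scaffolds of the base, were not called, at -0.02 and -0.11. PSMD5, PSMD9 and PSMD10 are chaperones that help assemble the ATPase ring and leave the finished particle. PSMD9 in untreated cells was 9.59, 9.57 and 9.67 with CALRwt, 9.49, 9.56 and 9.68 with CALRdel52, and 9.62, 9.64 and 9.72 with CALRins5. With MEL, PSMD9 was 9.48, 9.30 and 9.21 with CALRwt, 9.38, 9.33 and 9.28 with CALRdel52, and 9.40, 9.45 and 9.51 with CALRins5. Of the MEL arrays 8 lay below all untreated arrays. PSMD9 changed by -0.24 (SE 0.05, adjusted p = 8.3e-04). PSMD5 and PSMD10 had differences of 0.01 and -0.01.

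To set the classes beside each other, each gene's value was taken as its deviation from its own mean over the untreated arrays and averaged over the class in each array. The ATPase class stood at -0.41 ± 0.08 in CALRwt MEL cells (SD, n = 3), at -0.40 ± 0.10 with CALRdel52 and at -0.34 ± 0.12 with CALRins5. The alpha class stood at -0.25 ± 0.05, -0.26 ± 0.09 and -0.19 ± 0.05 in the same groups. The beta class stood at -0.14 ± 0.02, -0.16 ± 0.04 and -0.09 ± 0.05, and the non-ATPase class at -0.15 ± 0.06, -0.17 ± 0.04 and -0.11 ± 0.04. In each of these 4 classes the groups of the 3 vectors overlapped under MEL. Without MEL, CALRdel52 cells had the lowest and CALRins5 cells the highest mean in each of these classes, from -0.10 ± 0.06 to 0.09 ± 0.03 for the ATPase class.

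**Figure D4:**
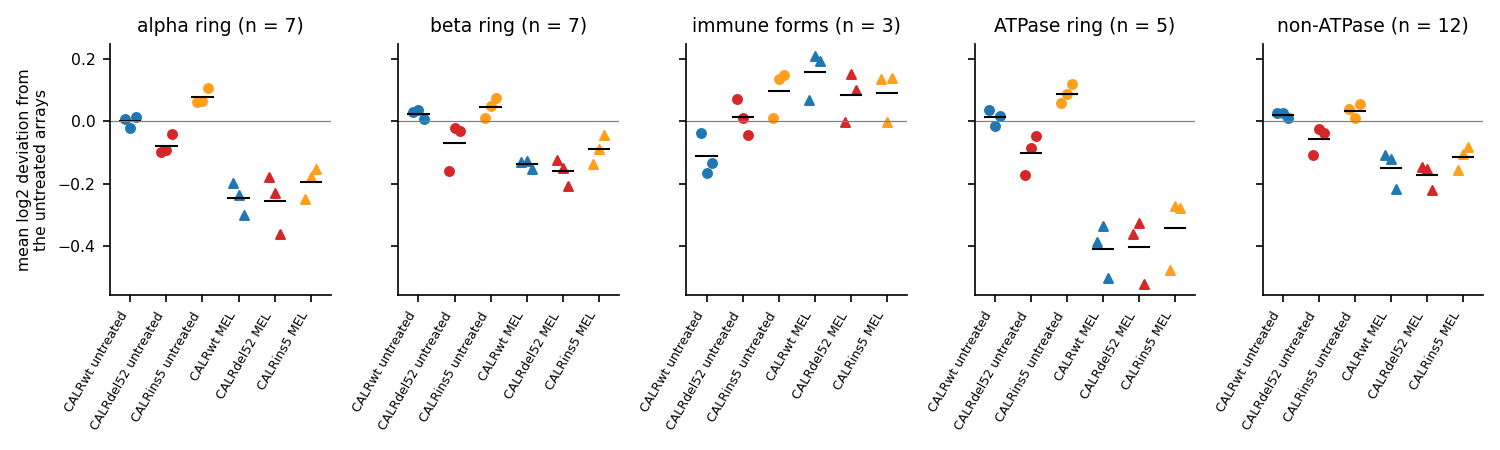
Mean log2 deviation of the genes of each class from their own mean over the 9 untreated arrays, with a circle for an untreated array, a triangle for a MEL array and a line at the mean of the 3 arrays of a group. The ATPase class lies lowest under MEL, at -0.34 to -0.41, and the immune forms show no common shift.

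Within single vectors fewer genes passed the test. With CALRwt 12 subunit genes fell and 1 rose, where 10.5% of all genes were called lower and 7.6% higher. With CALRdel52 5 fell (PSMA2, PSMC4, PSMC6, PSMD6 and PSMD12) and 0 rose, where 8.03% and 5.23% of all genes were called. With CALRins5 8 fell and 0 rose, where 6.8% and 4.83% were called. Of the 29 subunit genes with a mean above 9, 11 fell with CALRwt, 5 with CALRdel52 and 7 with CALRins5, where 23.7%, 15.7% and 13.6% of all genes above that level were called lower. At an unadjusted p under 0.05 there were 19, 13 and 20 subunit genes in the 3 vectors, and 6384, 5682 and 5102 of the 19775 genes. The median log2 fold changes of the 34 genes were -0.20, -0.13 and -0.18. The count with CALRdel52 rested on single arrays, and was 1 without untreated replicate 2 or MEL replicate 3, 2 without MEL replicate 1, and 3 without untreated replicate 1 or 3.

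The question of the study, whether mutated CALR alters the response to stress, was addressed by comparing mutated with CALRwt cells. Among untreated cells 0 of the 34 subunit genes and 0 of all genes passed limma's test between mutated (CALRdel52 and CALRins5 together) and CALRwt cells. At an unadjusted p under 0.05 there were 2, PSMB9 at 0.29 (SE 0.12) and PSMB8 at 0.24 (SE 0.10), both at the low values given above, and 1061 of the 19775 genes. Under MEL 0 of the 34 passed, where 0.0607% of all genes were called lower and 0.0253% higher, and 1 had an unadjusted p under 0.05, PSMC4 at 0.16 (SE 0.07), as did 1514 of the 19775 genes. The difference in MEL response between mutated and CALRwt cells passed for 0 subunit genes and 0 of all genes, and at an unadjusted p under 0.05 for 0 subunit genes and 887 of the 19775 genes. A linear model without moderation and limma with trend and robust options also called 0 subunit genes in each of these comparisons. The SEs of these differences were 0.06 to 0.12 without MEL, 0.06 to 0.14 with MEL and 0.08 to 0.20 for the difference in response. For PSMC6 the difference in response was 0.16 (SE 0.15).

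The mutated groups were also compared with each other. Without MEL, CALRins5 cells exceeded CALRdel52 cells in 4 subunit genes, where 0.415% of all genes were called higher and 0.718% lower. They were PSMA1 at 0.36 (SE 0.07, adjusted p = 0.0498), PSMC1 at 0.40 (SE 0.08, adjusted p = 0.041), PSMD1 at 0.42 (SE 0.08, adjusted p = 0.044) and PSMD6 at 0.38 (SE 0.08, adjusted p = 0.048), and PSMD1 is named here after its values were seen. All 4 lay close to the threshold. All had means above 9, and of the 3061 genes above that level 25 were called higher and 29 lower. The call was lost for all 4 with the replicate number as a fixed block, with arrays centred on their medians and with the GAPDH covariate. Probe sets with a letter before the _at of their name (such as _s_at) are called cross-hybridising here, also where they name 1 gene. Without them PSMA1, PSMC1 and PSMD1 had no probe set left, and PSMD6 lost its call. Leaving out any 1 of 8 of the 9 untreated arrays also lost the call for all 4. Without CALRdel52 untreated replicate 3, PSMC6 and PSMD1 were called.

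PSMD1 in untreated cells was 9.76, 9.73 and 9.65 with CALRwt, 9.33, 9.39 and 9.55 with CALRdel52, and 9.83, 9.84 and 9.87 with CALRins5. For PSMD1, PSMA1, PSMC1 and PSMD6 the CALRdel52 arrays lay below the CALRwt arrays and these below the CALRins5 arrays, with no overlap. PSMB1, PSMC2 and PSMD3 had the same order, which makes 7 of 34 subunit genes, against 0.986% of all genes, a count made after the values were seen. PSMD10 had the reverse order, as did 0.93% of all genes. Neither share was taken among genes of like level. Under MEL 0 subunit genes had either order, where 0.192% and 0.157% of all genes did. The difference between CALRins5 and CALRdel52 cells under MEL was 0.00 for PSMA1, 0.06 for PSMC1, 0.10 for PSMD1 and 0.16 for PSMD6, none of them called, where 0.0202% of all genes were called higher. Whether these differences changed with MEL was not tested between the mutated groups. Against CALRwt, CALRdel52 cells without MEL had 8 subunit genes and CALRins5 cells 2 at an unadjusted p under 0.05, next to 1871 and 1157 of the 19775 genes. In either comparison 0 subunit genes were called, where 0.00506% of all genes were called lower and 0.0506% higher with CALRdel52, and 0.0101% lower with CALRins5.

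RNA quality moved with MEL and was set beside the MEL changes by adding each array's GAPDH difference to the model. With it 10 subunit genes were called lower and 1 higher, where 10.9% of all genes were called lower and 7.47% higher. These shares were not taken among genes of like level, where the share called lower was larger without the covariate. The 10 were PSMA1, PSMA2, PSMA4, PSMC1, PSMC4, PSMC6, PSMD3, PSMD6, PSMD9 and PSMD12, and the gene called higher was PSMB9. PSMC6 changed by -0.73 and PSMC1 by -0.43 in this model. Some calls were lost at nearly the same size with a larger SE: PSMB1 had -0.14 (SE 0.05), PSMB5 -0.14 (SE 0.07), PSMB10 -0.15 (SE 0.08) and PSMD14 0.12 (SE 0.05). The calls of PSMA3, PSMB3, PSMB7, PSMC3, PSMD4, PSMD8 and PSMD11 were lost too. The medians of the alpha, ATPase and non-ATPase classes shrank with the covariate, as given in the last section. Since the GAPDH difference of every MEL array exceeded that of every untreated array, its part in the calls cannot be told apart from MEL.

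**Figure D5:**
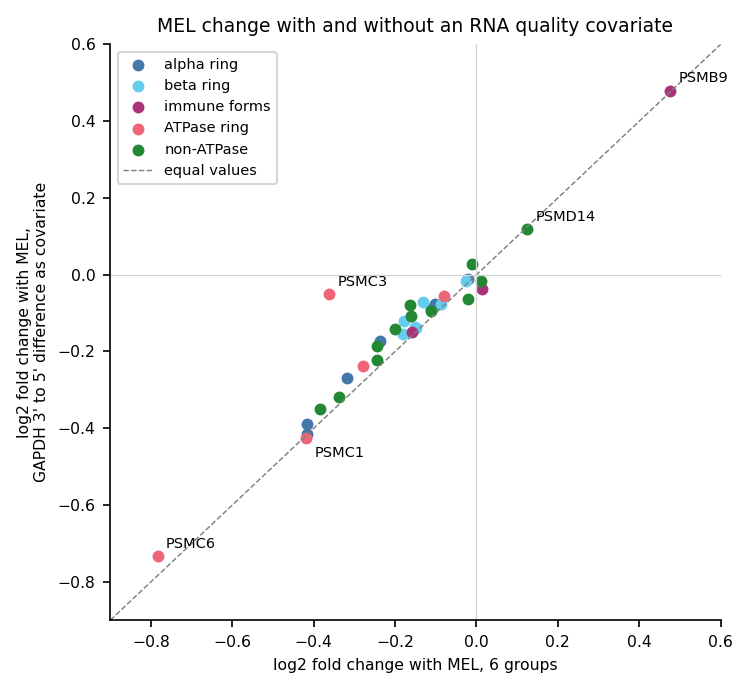
Log2 fold change of MEL against untreated cells over the 3 vectors for the 34 subunit genes, without (horizontal axis) and with (vertical axis) the GAPDH 3' to 5' difference of each array as a covariate, coloured by class, with a dashed line at equal values. PSMC6 and PSMC1 lie near the line, and PSMC3 moves from -0.36 to -0.05.

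Other genes of the proteasome were taken from lists. Their counts stand beside the 18.1% of all genes called lower and 18.6% called higher, with a median of 0.04. Among genes with a mean above 9 the shares were 37.2% and 17.3%, with a median of -0.07. Of the 6 assembly chaperones of the core and the ATPase ring, 5 fell with MEL and 0 rose, with a list median of -0.23. PSMG2, a member of a chaperone pair that builds the alpha ring, fell from 11.46 ± 0.03 to 11.06 ± 0.06 in CALRwt cells (SD, n = 3), from 11.32 ± 0.01 to 11.00 ± 0.09 in CALRdel52 cells and from 11.62 ± 0.05 to 11.07 ± 0.05 in CALRins5 cells. Its change over the 3 vectors was -0.42 (SE 0.04, adjusted p = 1.1e-06). PSMG4 and PSMG3, which form another pair, changed by -0.29 and -0.21, PSMG1, the partner of PSMG2, by -0.25, and PAAF1, a chaperone of the ATPases, by -0.18. POMP, which matures the beta ring, was not called, at -0.11. Of 4 further genes of the regulatory particle 2 fell, SEM1, a small lid subunit, by 0.29 and UCHL5, a deubiquitinase, by 0.26, while ADRM1 and USP14 were not called, at 0.00 and 0.08. Of 4 measured activators and inhibitors 1 fell, PSMF1, a regulator that binds the core, by 0.20, and 0 rose.

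Of the 5 genes measured on the route of NFE2L1, 2 fell and 1 rose, with a list median of 0.06, where 18.1% and 18.6% of all genes were called. NFE2L1 itself was not called, at 0.06, and neither was NFE2L2, at 0.06. NGLY1, the enzyme that strips the sugars of NFE2L1, fell by 0.35, and of its DNA-binding partners MAFF fell by 0.39 and MAFG rose by 0.35. Among 10 measured genes of ubiquitin activation, shuttling and VCP, RAD23B, a shuttle that brings ubiquitinated proteins to the proteasome, fell by 0.23, NPLOC4, a cofactor of VCP, rose by 0.36 and UBA1, the main ubiquitin-activating enzyme, rose by 0.15, with a list median of -0.02. The other 7 were not called, among them VCP at -0.01 and UBB at 0.02.

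Since the immune forms serve antigen presentation, 10 measured genes of the MHC class I and interferon route were set beside them, of which 4 rose and 2 fell, with a list median of 0.12, where 18.6% and 18.1% of all genes were called. IRF1, a transcription factor of the immune forms, rose from 6.06 ± 0.12 to 6.74 ± 0.09 in CALRwt cells (SD, n = 3) and from 6.20 ± 0.12 to 6.69 ± 0.11 in CALRdel52 cells, while in CALRins5 cells it was 6.36 ± 0.09 without and 6.46 ± 0.08 with MEL, a difference that was not called. The difference in MEL response between CALRins5 and CALRwt cells passed for 0 of all genes, so also not for IRF1. Over the 3 vectors IRF1 changed by 0.42 (SE 0.05, adjusted p = 1.2e-05). TAPBP, ERAP1 and TAP2, which load, trim and carry peptides, rose by 0.33, 0.28 and 0.19. TAP1, the neighbour of PSMB9 that is read from a shared promoter, was not called, at 0.13 (adjusted p = 0.078). HLA-B and HLA-E fell by 0.25 and 0.24.

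Several subunit genes had more than 1 probe set, and these did not always move together. In 11 of the 18 such genes all probe sets had 1 sign. Of the 27 probe sets other than those used above, 11 were called lower and 3 higher with MEL, and of the 14 with a mean above 7, 8 were called lower and 1 higher. PSMD5, at 0.01 on the probe set used, had a second probe set with a mean of 6.45 that rose by 0.66 (SE 0.09, adjusted p = 2.7e-05). PSMC2, at -0.08, had probe sets that rose by 0.17 and fell by 0.32. PSMA3, which fell by 0.24, had a further probe set with a mean of 4.10 that rose by 0.28. PSMA7 and PSMD1, at -0.02 each, had second probe sets that fell by 0.23 and 0.24, and PSMA5 and PSMB2, at -0.11 and -0.03, had others with means of 5.01 and 6.95 that fell by 0.21 and 0.29. PSMD12, which fell by 0.24, had another with a mean of 8.58 at 0.02, not called. PSMD10, at -0.01 on the probe set used, had another with a mean of 10.32 at -0.20 (SE 0.09, adjusted p = 0.084 by limma), not called. PSMB1, PSMD4 and PSMD11, which fell, each had a dim probe set, at 4.41, 4.41 and 5.92, with a difference of 0.15, 0.08 and 0.08 that was not called. The direction of PSMC2 and the absence of a call for PSMA5, PSMA7, PSMB2, PSMD1 and PSMD5 thus depended on the probe set.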

How the data were processed

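Expression was measured on 18 Affymetrix HG-U133 Plus arrays, 3 per group of vector and treatment. The authors deposited log2 values made by RMA in Partek, 1 for each of 54675 probe sets and array, with no filter. RMA removes background, brings the arrays to 1 distribution and combines the probes of a set. The sources used here do not say which arrays it was run on together, and the supplement names another array (U219) than these probe sets and labels do. Values were used as deposited.

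Groups came from the sample labels, and replicate numbers were not treated as pairs, which the labels do not give. Deviations of same-numbered arrays from their group means correlated from -0.22 to 0.23 over 45 pairs, with 16 above 0.1. Their median was 0.06, against -0.02 for pairs with different numbers, and 15 of 18 arrays correlated best with one of their own number. Pairing thus remains possible, and blocks by replicate number were run as alternatives. Tests were moderated fits of limma 3.58.1 (lmFit, eBayes; R 4.3.3), and a gene was called at an adjusted p under 0.05, adjusted by Benjamini-Hochberg over every probe set. The 9 untreated arrays in 3 groups served comparisons among untreated cells, and all 18 arrays in 6 groups the others, in place of the ANOVA at an unadjusted p under 0.01 of the study. The number of arrays limits the precision. Classes were described by counts and medians.

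Gene names came from the platform's probe table, in which 41097 probe sets name 1 gene, 1801 name several and 11777 were not named. Of the 61 probe sets of the subunit genes the brightest per gene was used, and 4 that name several genes were left out. The genes and lists were chosen with earlier results of these data known. Values per array were given for the 3 called genes per class with the largest change, any called gene of the opposite direction, and the catalytic and immune subunits. Promoters came from RefSeq tables of GRCh38.p14. Alternatives were other moderation, replicate blocks, normalizations, probe set choices, arrays in the model and a GAPDH covariate. Plots used matplotlib 3.10.9 under Python 3.11.15.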

Additional observations from a re-analysis of the deposited data

Results flagged for a closer look

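PSMB2, a structural subunit of the beta ring, had a MEL difference of 0.0315 with CALRdel52 and of -0.0709 with CALRins5. With CALRdel52 all 3 MEL arrays, at 11.68 to 11.70, lay above all 3 untreated ones, at 11.63 to 11.67. With CALRins5 all 3 MEL arrays, at 11.69 to 11.70, lay below all 3 untreated ones, at 11.75 to 11.79. Neither difference was called (adjusted p = 0.81 and 0.60 by limma), and the difference between both vectors was not tested. Among RNAs that are neighbours of subunit genes and were not among the 34 genes, PSMD14-DT, a divergent transcript of PSMD14, was higher with MEL by 0.27 (SE 0.07, adjusted p = 0.0056 by limma), at 2.41 ± 0.10 in 9 untreated and 2.68 ± 0.20 in 9 MEL arrays (SD), near the bottom of the range of the arrays. PSMD6-AS2, an antisense transcript of PSMD6, was higher with MEL by 0.43 (SE 0.11, adjusted p = 0.0061 by limma), at 6.10 ± 0.37 and 6.52 ± 0.13. PSMA3-AS1, PSMB8-AS1 and PSMD7-DT were not called, at -0.07, 0.02 and 0.00.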

How the results depend on the processing

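Over the 3 vectors, the 20 subunit genes called lower with MEL became 12 of 25 measured without cross-hybridising probe sets, with PSMB2 gained, and 10 with the GAPDH covariate. The count was 15 after repeated quantile normalization and 17 without both arrays that stood apart. It was 25 without moderation, with trend and robust moderation or after centring. Above the median level it was 23 of 31 measured, and with the mean of probe sets 22. When 1 array was left out it ranged from 19 to 21. Of the calls lost without cross-hybridising probe sets, PSMA1, PSMC1, PSMC3, PSMD9 and PSMD12 had no probe set left. PSMB1, PSMD4 and PSMD11 passed to dim probe sets, and PSMB10 lost its call on the same one. The 2 called higher became 1 after centring of the arrays and with the covariate, where PSMD14 lost its call. Among probe sets above the median level 1 was called higher, since PSMB9 was not measured there. The count was 3 with the mean of probe sets (PSMD5 added) or without cross-hybridising ones (PSMC2 added). The replicate number as a fixed block gave 20 lower, 19 of them shared (PSMB10 lost, PSMB6 gained), and 2 higher, and as a random block 20 and 2. Of the arrays 15 of 18 correlated best with one of their own number, a hint from the data only.

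With CALRwt the 12 called lower became 19 with trend and robust moderation and 7 without cross-hybridising probe sets (8 to 13 with 1 array left out). The 1 called higher, PSMB9, was not measured above the median level, where 0 were called higher. The count was 2 with the mean of probe sets or without cross-hybridising ones (1 to 2, the 2 without CALRwt MEL replicate 1). With CALRdel52 the 5 called lower became 9 without moderation, 10 with trend and robust moderation or above the median level, 8 after centring or with the mean of probe sets, 2 after repeated quantile normalization, without cross-hybridising probe sets or with the covariate, and 1 with the arrays of this vector only or without both arrays that stood apart (1 to 6). The 0 called higher became 1 with the mean of probe sets (0 to 1, the 1 without CALRdel52 untreated replicate 1). With CALRins5 the 8 called lower became 15 without moderation, 13 with trend and robust moderation, and 5 without cross-hybridising probe sets or with the covariate (6 to 8), and the 0 called higher became 1 without moderation, with trend and robust moderation, after quantile normalization or above the median level, and 2 with the mean of probe sets. The 4 genes higher in CALRins5 than in CALRdel52 untreated cells became 11 with trend and robust moderation.

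Class medians moved to -0.17 (alpha), -0.074 (beta), -0.28 (ATPase) and -0.095 (non-ATPase) after quantile normalization, to -0.20 (beta) and -0.21 (non-ATPase) after centring, to -0.16 (alpha) and -0.12 (non-ATPase) with the mean of probe sets, to 0.16 (immune), -0.28 (ATPase) and -0.051 (non-ATPase) without cross-hybridising probe sets, and to -0.17 (alpha), -0.24 (ATPase) and -0.10 (non-ATPase) with the covariate. The immune median was -0.16 above the median level, where PSMB10 alone was left. The ATPase median was -0.26 without both arrays that stood apart, and -0.41 to -0.27 with 1 array left out, the latter without CALRins5 MEL replicate 1. The immune median was -0.040 to 0.088 with 1 array left out. Neither joint comparison of mutated with CALRwt cells, nor their difference in response, gained a call among subunit genes under the alternatives run. Over the 3 vectors, PSMA3 changed sign to 0.012 with the mean of probe sets, and PSMB1, PSMD4 and PSMD11 to 0.15, 0.078 and 0.081 without cross-hybridising probe sets, none called, while PSMC2 went from -0.08 to 0.17 and was called higher there. Apart from the covariate, the probe set choice and arrays left out, whose construction changes the model or the measured values, the cause was not tested.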
